A study of Mus musculus with 6 samples.

Results

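GABA-A receptor subunits were followed in mouse embryonic stem cell (mESC)-derived CTIP2:GFP+ and CTIP2:GFP- cells through 7 genes, Gabra2, Gabra3, Gabra4, Gabra5, Gabrb1, Gabrb2 and Gabrg3, out of 19938 genes measured. The members were taken by gene symbol from the platform annotation. Each was represented by the probe set with a single symbol and the highest mean over 6 arrays. All 7 had such a probe set, and no filter on low signals was applied, so that every member was tested. A further 9 subunit genes of the same receptor family were measured and are given beside them. The cells came from 1 knock-in line, made in 129SVEV ESCs, in which GFP was placed behind the coding region of Ctip2 (Bcl11b) through an internal ribosome entry site and the Neo cassette was kept. They were differentiated as floating aggregates (SFEBq) under an inhibitor of the TGF-beta receptor and an inhibitor of WNT, which both fractions therefore share. On day 11, day 12 and day 13 the aggregates were sorted into CTIP2:GFP+ and CTIP2:GFP- cells, and the RNA of each fraction was hybridised to 1 GeneChip Mouse Gene 1.0 ST array per day. The 3 arrays of a fraction are thus 3 consecutive days and not repeated cultures of 1 day, and the labels do not say whether the days came from separate cultures. A p-value here weighs the mean difference against its variation between days, with the variance of each gene drawn towards that of all genes by the fit (limma).

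GABA-A receptors are chloride channels of 5 subunits, most often built from alpha and beta subunits together with a gamma or delta subunit. GABA binds between the alpha and beta subunits, and the alpha subunit largely sets the affinity for GABA and the response to benzodiazepines, which bind between alpha and gamma. In the rodent forebrain the alpha2, alpha3 and alpha5 subunits (Gabra2, Gabra3 and Gabra5) are prominent before birth, while alpha4 and beta2 (Gabra4 and Gabrb2) rise after birth. In young neurons the chloride level inside the cell is high, and GABA acting on these receptors depolarises rather than silences the cell. The beta1 and gamma3 subunits (Gabrb1 and Gabrg3) were not assigned to either stage here.

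Among the 6 arrays 1 differed from the rest. The day 13 CTIP2:GFP- array spread least, with a standard deviation (SD) over probe sets of 1.11 where the CTIP2:GFP- arrays of day 11 and day 12 had 1.29 and 1.48, and it correlated with the remaining 5 arrays at 0.863 to 0.927 (Pearson, across probe sets). On day 13 the median difference, CTIP2:GFP+ minus CTIP2:GFP-, was -0.25 over the 9149 genes whose mean signal was below the median of all probe sets, and 0.33 over the 10789 genes at or above it. The reporter gene itself followed the sort. Bcl11b had a log2 signal of 8.76, 7.91 and 8.54 in CTIP2:GFP+ cells on day 11, day 12 and day 13, against 6.44, 6.27 and 6.88 in CTIP2:GFP- cells (a difference of 1.87 with a standard error of 0.19, limma adjusted p = 0.025). Signals are log2 RMA values, and precision is limited by there being 3 arrays a fraction.

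Of the 7 subunits, the alpha subunits Gabra3 and Gabra2 rose in CTIP2:GFP+ cells, 4.17-fold and 2.78-fold. None of the 7 fell. The other 5 members, Gabra4, Gabra5, Gabrb1, Gabrb2 and Gabrg3, did not pass the test, with log2 differences of -0.17 to 0.62. All 7 were tested in limma with a term for each day, p-values being adjusted by Benjamini-Hochberg across the 19938 genes and called under 0.05, and by this rule 0.797% of all genes were called higher and 0.567% lower. The genes called higher all lay at or above the median signal of all probe sets (1.47% of the 10789 there), as do Gabra2, Gabra3 and Gabrb2. Below it, where the other members lie, 0 of 9149 genes were called higher. At an unadjusted p under 0.05, 3 members were higher and 0 lower, against 9.58% and 5.96% of all genes. These 3 lie at or above the median signal, where 17.3% of genes were higher at that threshold. More than 2-fold higher were 2 members, against 1.97% of all genes. On all 3 days 5 members were higher (16.9% of all genes) and 0 lower (21.4%). Without day 13, 0 of the 19938 genes passed in either direction. The median difference of the members was 0.55, beside -0.05 over all genes. A count over 7 members chosen with earlier results known describes these genes and is not a test of the receptor as a whole. In a sorted bulk fraction, more cells with a transcript and more transcript per cell cannot be told apart.

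Gabra3 encodes alpha3, an alpha subunit of developing forebrain neurons and, in the adult, of deep cortical layers and of the reticular thalamus. Its log2 signal was 7.93, 8.52 and 7.50 in CTIP2:GFP+ cells on day 11, day 12 and day 13, against 5.99, 5.87 and 5.90 in CTIP2:GFP- cells. Every CTIP2:GFP+ array lay above every CTIP2:GFP- array, and the spread was almost wholly within CTIP2:GFP+ cells, where day 12 was highest and day 13 lowest. The means were 7.98 ± 0.51 and 5.92 ± 0.06 (SD, n = 3 each), a log2 difference of 2.06 (standard error 0.23, 95% interval 1.51 to 2.62, adjusted p = 0.028 from limma). By day the difference was 1.94, 2.65 and 1.60. This placed Gabra3 at rank 22 of the 19938 genes by difference. The call was lost without day 13 (difference 2.29, adjusted p = 0.052), after median centring of each array (2.12, adjusted p = 0.105) after a further quantile normalization (1.93, adjusted p = 0.055) and with an unpaired form of the test that the methods name for other data, not for the arrays (adjusted p = 0.258). Over all alternatives with an adjusted p, it ran from 2.05e-06 to 0.258.

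Gabra2 encodes alpha2, the alpha subunit that in the adult cortex is enriched at synapses on the axon initial segment of pyramidal neurons. Its log2 signal was 6.59, 6.74 and 6.61 in CTIP2:GFP+ cells on day 11, day 12 and day 13, against 5.02, 5.01 and 5.49 in CTIP2:GFP- cells. The CTIP2:GFP+ arrays lay close together and all above the CTIP2:GFP- arrays, among which day 13 was highest. The means were 6.65 ± 0.08 and 5.17 ± 0.28 (SD, n = 3 each), a log2 difference of 1.47 (standard error 0.17, 95% interval 1.05 to 1.90, adjusted p = 0.031 from limma). By day the difference was 1.58, 1.73 and 1.12, and Gabra2 ranked 101 by difference among all genes. The call was lost without day 13 (difference 1.65, adjusted p = 0.052), after median centring of each array (1.53, adjusted p = 0.098) and with that same unpaired test (adjusted p = 0.199). Over all alternatives with an adjusted p, it ran from 2.05e-06 to 0.199.

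**Figure D1:**
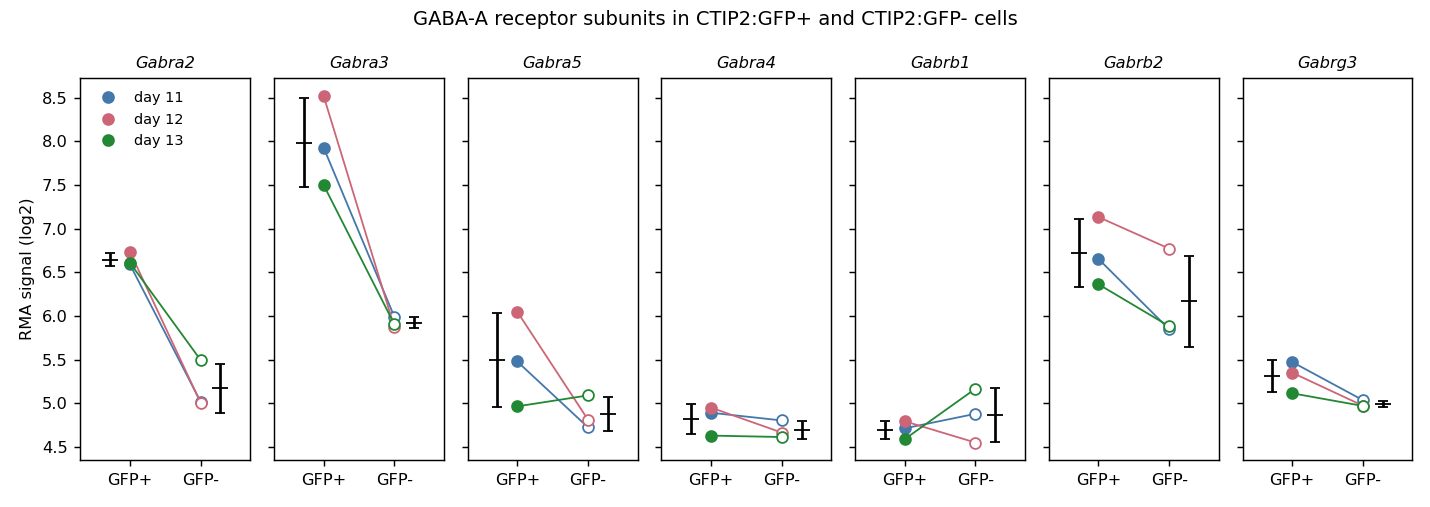
RMA signal (y axis, log2) of the 7 subunit genes in CTIP2:GFP+ (filled points) and CTIP2:GFP- cells (open points, x axis). Each colour is a day, whose pair of arrays is joined by a line, with the mean and SD (n = 3) in black. Gabra2 and Gabra3 separate the fractions on every day, at 6.65 against 5.17 and 7.98 against 5.92, while the points of Gabra4 and Gabrb1 overlap near 4.7.

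The promoters of Gabra2 and Gabra3 are shown because these are the members that rose and their start regions are unlike. The sequences are RefSeq windows of build GRCm38.p6, from 250 bases before to 50 bases after the start site, and were found for all 7 members, which have 11 annotated start sites among them. Capitals mark CG dinucleotides, the sites at which DNA can be methylated in mammals. The Gabra2 window (chr5:71095800-71096099, minus strand) holds 25 of them and is 70.0% G and C. The Gabra3 window of the first listed start site (chrX:72656870-72657169, minus strand) holds 0 and is 43.0% G and C.
Gabra2: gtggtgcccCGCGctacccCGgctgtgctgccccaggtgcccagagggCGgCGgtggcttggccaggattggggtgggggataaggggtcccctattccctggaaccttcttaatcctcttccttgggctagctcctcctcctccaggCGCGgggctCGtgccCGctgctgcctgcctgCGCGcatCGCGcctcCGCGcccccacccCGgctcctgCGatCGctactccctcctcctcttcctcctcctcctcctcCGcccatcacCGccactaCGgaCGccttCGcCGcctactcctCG
Gabra3: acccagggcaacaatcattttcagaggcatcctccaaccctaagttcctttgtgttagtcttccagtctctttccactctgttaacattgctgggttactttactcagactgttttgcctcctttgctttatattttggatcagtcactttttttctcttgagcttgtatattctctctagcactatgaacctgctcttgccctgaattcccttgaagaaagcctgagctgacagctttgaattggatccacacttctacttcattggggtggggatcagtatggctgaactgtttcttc
Over 32851 RefSeq promoter windows of this length the median was 7 CG dinucleotides, and 5.43% held 0. The second Gabra3 window, which overlaps the first, also held 0. The TATA-box letters TATAAA, searched on both strands, were found in 3 of the 11 member windows, both of Gabra3 and the first of Gabrb2, and in 13.6% of all windows. Both Gabra3 windows hold the same match, in the stretch that they share, so that site is counted in each. The homeobox core TAATTA was in 0 of the 11, against 5.29% of all windows, the E-box CAGCTG in 0 against 16.3%, and the cyclic AMP response element TGACGTCA in 0 against 1.79%. A match describes these letters only, and no match says only that they are not in these windows.

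Gabra5, whose alpha5 subunit is known for receptors outside synapses in the hippocampus, did not pass the test. Its log2 signal was 5.48, 6.05 and 4.96 in CTIP2:GFP+ cells on day 11, day 12 and day 13, against 4.72, 4.81 and 5.09 in CTIP2:GFP- cells. CTIP2:GFP+ cells were above CTIP2:GFP- cells on day 11 and day 12, whereas on day 13 the order was the opposite and the groups overlapped. The means were 5.50 ± 0.54 and 4.87 ± 0.19 (SD, n = 3 each), a log2 difference of 0.62 (standard error 0.27, 95% interval -0.04 to 1.29, adjusted p = 0.357 from limma). The daily differences were 0.76, 1.24 and -0.13. Gabra5 passed under 1 alternative, a trended and robust eBayes (adjusted p = 0.049), and over all alternatives its adjusted p ran from 0.0491 to 0.731.

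Gabrb2 and Gabrg3 lay a little higher in CTIP2:GFP+ cells on all 3 days, without passing the test. Gabrb2 encodes beta2, a widespread beta subunit of the adult brain. Its log2 signal was 6.65, 7.13 and 6.36 in CTIP2:GFP+ cells on day 11, day 12 and day 13, against 5.85, 6.77 and 5.88 in CTIP2:GFP- cells. Both fractions were highest on day 12, where the CTIP2:GFP- array exceeded the CTIP2:GFP+ arrays of the other days, so the groups overlapped although each day kept the same order. The log2 difference was 0.55 (standard error 0.15, 95% interval 0.17 to 0.93, adjusted p = 0.165 from limma). Gabrb2 was the only member with more than 1 probe set, and the size of its difference depended on which was read: it was 1.14 and 0.57 on the 2 that were not used.

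Gabrg3 encodes gamma3, a minor gamma subunit. On the 3 days it had a log2 signal of 5.47, 5.35 and 5.11 in CTIP2:GFP+ cells, against 5.03, 4.97 and 4.97 in CTIP2:GFP- cells. The groups did not overlap, yet the differences were small, at 0.44, 0.38 and 0.15, with a mean of 0.32 (standard error 0.14, 95% interval -0.03 to 0.67, adjusted p = 0.372 from limma). Together with Gabra2 and Gabra3, Gabrg3 made 3 of 7 members whose CTIP2:GFP+ arrays were all above the CTIP2:GFP- arrays, where 9.05% of all genes had that order. The opposite order, seen in 7.85% of all genes, was found in 0 members.

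Gabra4 and Gabrb1 had low signals in both fractions. Gabra4 encodes alpha4, which in the adult forms receptors outside synapses with the delta subunit, chiefly in thalamus and dentate gyrus. Its log2 signal was 4.89, 4.95 and 4.63 in CTIP2:GFP+ cells on day 11, day 12 and day 13, against 4.80, 4.66 and 4.61 in CTIP2:GFP- cells. The ranges overlapped, and the log2 difference was 0.13 (standard error 0.14, 95% interval -0.22 to 0.48, adjusted p = 0.707 from limma). Gabrb1, which encodes beta1, had a log2 signal of 4.71, 4.79 and 4.59 in CTIP2:GFP+ cells, against 4.88, 4.55 and 5.17 in CTIP2:GFP- cells of the same days. The ranges overlapped here too, the highest value being the CTIP2:GFP- array of day 13, and the log2 difference was -0.17 (standard error 0.19, 95% interval -0.64 to 0.31, adjusted p = 0.723 from limma). The mean signals of both genes over the 6 arrays lay at percentile 24.2 and 25.3 of all probe sets, so a transcript level near the lower end of the array cannot be told from none.

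Gabra4 and Gabrb1 lie head to head on chromosome 5, with start sites 387 bases apart and 5' ends that overlap, and their start regions are shown as the counterpart of the promoters above. The Gabra4 window (chr5:71658259-71658558, minus strand) holds 12 CG dinucleotides, again in capitals. The first Gabrb1 window (chr5:71657671-71657970, plus strand) holds 25, as many as that of Gabra2.
Gabra4: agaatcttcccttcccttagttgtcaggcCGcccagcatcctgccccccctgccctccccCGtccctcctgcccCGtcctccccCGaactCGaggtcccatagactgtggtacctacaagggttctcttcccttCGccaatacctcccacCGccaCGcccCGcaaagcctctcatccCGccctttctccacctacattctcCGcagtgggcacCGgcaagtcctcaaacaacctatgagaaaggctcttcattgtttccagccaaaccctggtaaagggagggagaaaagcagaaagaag
Gabrb1: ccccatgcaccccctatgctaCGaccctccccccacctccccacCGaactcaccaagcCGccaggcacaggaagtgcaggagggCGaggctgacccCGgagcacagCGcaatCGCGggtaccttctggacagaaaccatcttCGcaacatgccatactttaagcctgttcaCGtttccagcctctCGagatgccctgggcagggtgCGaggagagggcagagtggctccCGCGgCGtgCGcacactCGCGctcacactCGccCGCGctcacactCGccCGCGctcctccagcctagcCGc
The number of CG dinucleotides thus did not separate the members that rose from the others, since Gabra2 and Gabrb1 were alike in it and Gabra3 stood at 0.

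Read by developmental stage, Gabra2, Gabra3 and Gabra5, known from before birth, differed by 1.47, 2.06 and 0.62, and Gabra4 and Gabrb2, known to rise after birth, by 0.13 and 0.55. Gabra5 and Gabrb2 had no settled order. Gabrb2 was at 0.76 as the mean of its probe sets and at 1.14 on another probe set, and on day 13 Gabra5 was at -0.13 and Gabrb2 at 0.48. Of the subunits of the earlier stage 2 of 3 passed the test, and of the later stage 0 of 2, with 1 of these 2, Gabrb2, at an unadjusted p under 0.05. Below the median signal of all probe sets, where Gabra4 and Gabra5 lie, 0 of 9149 genes were called higher. At or above it, where Gabra2, Gabra3 and Gabrb2 lie, 159 of 10789 were (1.47%). The share called thus depended on the signal, and stage and signal were not separated. The stage groups were not tested against each other. A probe set's signal depends on its probes as well as on the transcript, so the subunits were not ranked by level. The position of each signal among the probe sets of its own arrays is given instead. Gabra3 lay at percentile 91.2 in CTIP2:GFP+ and 63.4 in CTIP2:GFP- cells, Gabra2 at 76.0 and 41.2, and Gabra5 at 50.9 and 28.4. Gabrb2, of the later stage, lay at 76.8 and 66.8, so that a signal well above the lower end was present in both fractions.

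The daily differences of most members shared an order that is also common among genes of low signal. The difference was largest on day 12 in 5 of 7 members, Gabra2, Gabra3, Gabra4, Gabra5 and Gabrb1, against 35.7% of all genes, and smallest on day 13 in 6 of 7, all but Gabrb2, against 42.5% of all genes. Both held in 5 of 7, against 26.6% of all genes. These shares depended on the signal. Below the median signal of all probe sets, where Gabra4, Gabra5, Gabrb1 and Gabrg3 lie, both held in 46.4% of genes and in 3 of these 4 members. At or above it, where Gabra2, Gabra3 and Gabrb2 lie, both held in 9.86% of genes and in 2 of these 3. Of the 9 other subunits, 7 had the largest difference on day 12 and 5 held both, so the order was not particular to the members. The fit along the days tests only a linear change, which leaves a peak on day 12 untested. The slope of the difference per day had an adjusted p of 0.999 for each of the 7 members in limma, with 0 members under an unadjusted p of 0.05. In this fit eBayes gave each of the 7 the same standard error, 0.27, so a gene's own variation did not enter its p-value. The background of that test was 0.0351% of genes, 7 of 19938. A slope of the signal itself per day, over both fractions, passed the test for 0 members (adjusted p = 0.997 each, 0 members under an unadjusted p of 0.05) and for 0 genes in all (0% of genes, with 174 genes at an unadjusted p under 0.05). The narrow CTIP2:GFP- array of day 13 enters every day 13 value. Its part in the order was not tested.

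**Figure D2:**
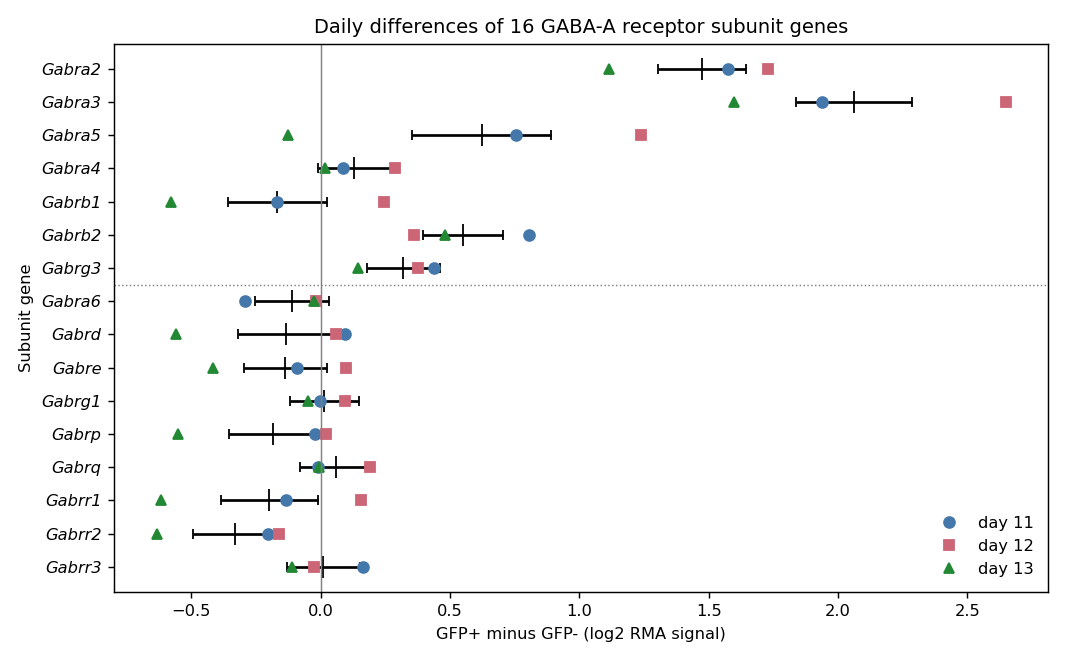
Difference CTIP2:GFP+ minus CTIP2:GFP- (x axis, log2 RMA signal) of 16 GABA-A receptor subunit genes (y axis), the 7 members above the dotted line and the 9 other subunits below it. Points are the 3 days, and bars give the mean and its limma standard error. Gabra3 and Gabra2 lie furthest to the right, at 2.06 and 1.47, and the 9 other subunits lie between -0.33 and 0.06.

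None of the 9 other subunit genes passed the test (0 higher and 0 lower in limma, and 0 at an unadjusted p under 0.05). They were Gabra6, the cerebellar granule cell alpha subunit, Gabrg1, Gabrd, the delta subunit of receptors outside synapses, Gabre, Gabrp, Gabrq, and the rho subunits Gabrr1, Gabrr2 and Gabrr3, best known from the retina. Their log2 differences ran from -0.33 for Gabrr2 to 0.06 for Gabrq, with a median of -0.14, and their mean signals lay at percentile 16.01 to 55.7 of all probe sets. For Gabrd the difference was -0.14 (standard error 0.18, 95% interval -0.58 to 0.31), and for Gabrg1 it was 0.01 (standard error 0.13, 95% interval -0.32 to 0.35).

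The genes that rose have close neighbours of the same family that did not pass the test. Subunit genes lie in clusters, and in the gene order of GRCm38.p6 Gabrg1, Gabra2, Gabra4 and Gabrb1 follow each other on chromosome 5, with 1 other protein-coding gene, between Gabra2 and Gabra4, among them. Of these 4 genes Gabra2 differed by 1.47, while Gabrg1, Gabra4 and Gabrb1 were at 0.01, 0.13 and -0.17. On the X chromosome Gabra3 stands between Gabre and Gabrq, with 1 protein-coding gene between it and Gabre. Gabra3 differed by 2.06 and its neighbours by -0.14 and 0.06. On chromosome 7 the adjacent Gabrg3 and Gabra5 were at 0.32 and 0.62, and on chromosome 11 Gabra6 and Gabrb2 were at -0.11 and 0.55, and none of these passed. The neighbours of the 2 genes that rose were dim. Gabrg1, Gabra4 and Gabrb1 lay at percentile 18.3, 24.2 and 25.3 of all probe sets, against 62.5 for Gabra2. Gabre and Gabrq lay at 42.7 and 42.8, against 82.3 for Gabra3. Below the median signal 0 of 9149 genes were called higher, so that these neighbours did not pass says little of them. The differences between neighbours were not tested against each other.

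**Figure D3:**
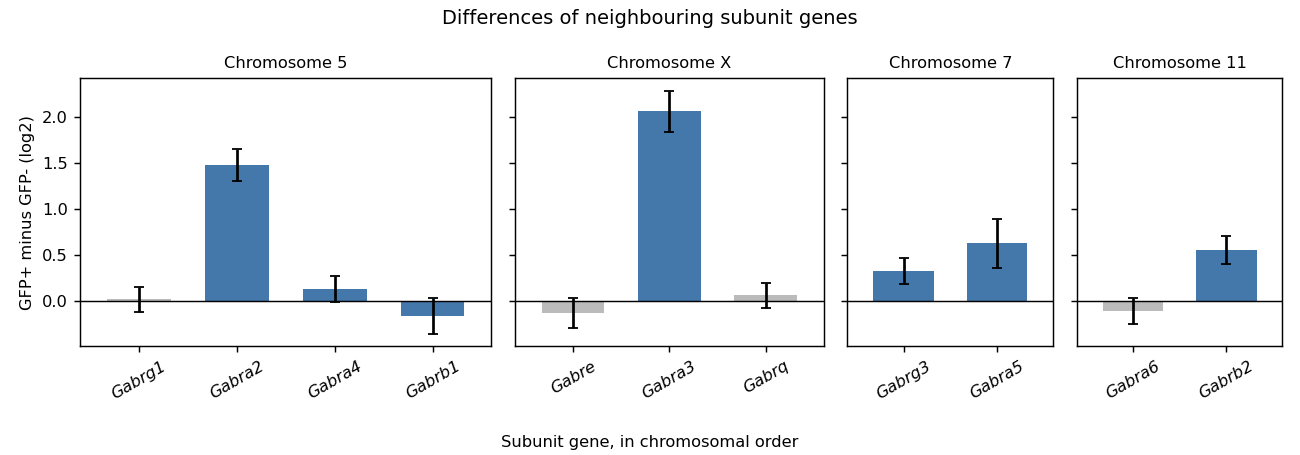
Mean difference CTIP2:GFP+ minus CTIP2:GFP- (y axis, log2) of subunit genes in their chromosomal order (x axis, not to scale) in 4 clusters. Blue bars are the 7 members and grey bars other subunits, each with its limma standard error. In the clusters of chromosome 5 and the X chromosome 1 bar each stands out, Gabra2 at 1.47 and Gabra3 at 2.06. Their neighbours there had mean signals below the median of all probe sets.

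The genes whose profiles were most like those of the members are given by the root mean square distance between log2 profiles over the 6 arrays, each profile centred on its own mean. Nearest to Gabra3 were Lrrc7 (distance 0.21) and Drp2 (0.29), where Gabra3 itself varied by 1.07 about its mean. Nearest to Gabra2 were Sel1l3 (0.13) and Chd5 (0.16), against a variation of 0.76. For Gabra5 they were Kcnma1 (0.13) and Car10 (0.13), and for Gabrb2 Slc23a2 (0.09) and Slc9a7 (0.09). Gabra4, Gabrb1 and Gabrg3 varied by 0.13, 0.21 and 0.19 only, and their nearest genes, at distances of 0.02 to 0.06, share a nearly flat profile. Among the members, the profiles of Gabra2 and Gabra3 correlated at 0.949 (Pearson) over the 6 arrays, which share the sort and the days. With 6 arrays and 19938 genes close profiles are common, and no test was made.

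Genes that hold and move the receptor were higher in part. Of 22 listed genes for anchoring and trafficking, 2 rose, 0 fell and 20 did not pass, while 13 were higher and 0 lower at an unadjusted p under 0.05 (9.58% and 5.96% of all genes), and the median difference was 0.62. Their mean signals lay at percentile 46.8 to 98.9 of all probe sets. At or above the median signal 17.3% of genes were higher and 8.78% lower at that unadjusted threshold. The rises were Kif5a, a kinesin heavy chain of neurons (a difference of 1.58 with a standard error of 0.14, limma adjusted p = 0.024), and Shisa7, which binds the receptor as an auxiliary protein (1.20, standard error 0.14, adjusted p = 0.031). Kif5a carries many cargoes and is not particular to this receptor. The call of Kif5a was lost in 3 of 13 alternatives, over which its adjusted p ran from 0.000341 to 0.124. With no replicate block, that is without the day in the fit, the call of Shisa7 was lost (adjusted p = 0.128), and over its alternatives the adjusted p ran from 0.00283 to 0.462. Among the larger differences that did not pass were Slitrk3, an organiser of inhibitory synapses (1.83, adjusted p = 0.066, under 0.05 in 5 of 13 alternatives), and Gabarapl2, a relative of the GABA-A receptor-associated protein (1.15, adjusted p = 0.154). Chosen after their values were seen, Lhfpl4, a receptor partner that links it to neuroligin-2, was at 0.88 (adjusted p = 0.060) and Gphn, which encodes the scaffold gephyrin, at 0.61 (adjusted p = 0.259). Gabarapl2 and Lhfpl4 each had an adjusted p under 0.05 in 3 of 13 alternatives.

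GABA synthesis, transport and chloride genes did not move as 1 group. Gad1, an enzyme that makes GABA, rose (a difference of 1.85 with a standard error of 0.22, limma adjusted p = 0.032), and Slc6a11, a GABA transporter of glia, fell (-1.88, standard error 0.21, adjusted p = 0.029). Of the 7 measured genes of this list these 2 passed, while Gad2, the second GABA-making enzyme, did not (2.27, adjusted p = 0.059). Gad2 did pass under 6 of its 13 alternatives. With no replicate block the calls of Gad1 (adjusted p = 0.065) and Slc6a11 (adjusted p = 0.367) were lost. Over the alternatives the adjusted p ran from 0.000102 to 0.368 for Gad1 and from 6.94e-05 to 0.719 for Slc6a11. Of 3 chloride transporters 0 passed. Slc12a5, which exports chloride and rises as neurons mature, was at 0.45 (95% interval 0.07 to 0.82, adjusted p = 0.239), and Slc12a2, which imports it and is prominent in young neurons, was at 0.41 (95% interval -0.13 to 0.95, adjusted p = 0.459).

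Other inhibitory receptors are set beside the members only to place them. Of 5 genes of the metabotropic GABA-B receptor and its auxiliary proteins, 1 rose, the receptor subunit Gabbr1 (a difference of 1.11 with a standard error of 0.16, limma adjusted p = 0.044), and its partner Gabbr2 was at 0.74 (adjusted p = 0.208). Of 5 glycine receptor subunits, the nearest relatives of the GABA-A subunits, 1 rose, Glra2, the alpha subunit known from embryonic neurons (1.17, standard error 0.16, adjusted p = 0.043). With no replicate block the calls of Gabbr1 (adjusted p = 0.097) and Glra2 (adjusted p = 0.118) were lost, while those of Gabra2 (0.026) and Gabra3 (0.030) were kept. Over their alternatives the adjusted p of Gabbr1 ran from 0.00518 to 0.406 and that of Glra2 from 1.15e-05 to 0.441. The median difference was 0.59 over the GABA-B list and -0.08 over the glycine receptor list, against 0.55 over the 7 GABA-A members. Among ionotropic glutamate receptors 2 of 4 AMPA, 1 of 6 NMDA and 0 of 5 kainate receptor subunits were higher past the test, against 0.797% of all genes. At an unadjusted p under 0.05 in limma 4, 3 and 3 were higher, against 9.58% of all genes and 17.3% of those at or above the median signal. The median differences of these 3 lists were 1.77, 0.22 and 0.54, so that of the AMPA list exceeded that of the GABA-A members. Whether these families differ from the GABA-A subunits was not tested.

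**Figure D4:**
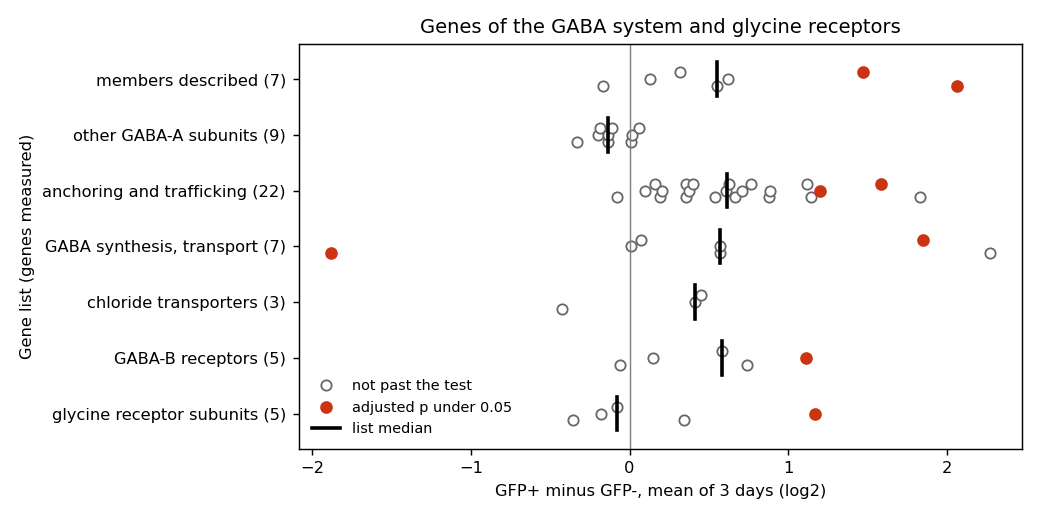
Difference CTIP2:GFP+ minus CTIP2:GFP- (x axis, log2, mean of 3 days) of single genes (points), grouped into 7 lists down the y axis with each list's measured gene count. Filled points passed limma at an adjusted p under 0.05, and bars are list medians. Of the 7 members Gabra2 and Gabra3 passed, and the 9 other subunits lie around -0.14.

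Markers of cell type moved with the same sort. Over all genes 0.797% were called higher and 0.567% lower, and 1.47% and 1.04% of those at or above the median signal. Of 14 general neuronal genes 4 rose and 0 fell, and their summed log2 signal was 125.3 to 129.9 in CTIP2:GFP+ and 102.5 to 116.9 in CTIP2:GFP- cells. Of 12 genes of radial glia and progenitors 5 fell and 0 rose, with sums of 85.3 to 91.9 against 100.9 to 106.7. Of 10 genes listed for interneurons of the medial ganglionic eminence 7 rose and 0 fell, with sums of 80.4 to 94.5 against 62.2 to 67.2. Those that did not pass were Dlx6 (1.39, limma adjusted p = 0.066), Nkx2-1 (0.78, adjusted p = 0.112) and Gad2 (2.27, adjusted p = 0.059). Gad1 and Gad2 are also counted in the GABA synthesis list, so this list is not particular to that origin. Of 10 genes of deep-layer projection neurons 1 rose, Bcl11b, the gene whose reporter defined the sort. The sums of this list were 60.2 to 65.1 against 57.9 to 59.4. They include Bcl11b, which alone differed by 1.87, so their separation cannot be read apart from the sort. None of 9 genes of astrocytes and oligodendrocytes, 5 of pluripotent cells, 6 of mesenchyme and 4 of the telencephalon passed. Of those 9 genes 3 had a difference above 0 and 6 below. They ran from -1.94 for Aldh1l1 (limma adjusted p = 0.062) to 1.26 for Pdgfra (adjusted p = 0.057). Of the deep-layer genes 6 of 10 had a difference above 0 and 4 below. Apart from Bcl11b they ran from -0.35 for Crym to 0.81 for Slc17a6, a vesicular glutamate transporter, with Tbr1, a transcription factor of deep layers, at 0.74 and Slc17a7, the other cortical glutamate transporter, at -0.05. An array gives no value of 0. In the neuronal list the daily difference was largest on day 13 in 14 of 14 genes, with list medians of 0.87, 0.85 and 1.65, and in 0 of the 7 subunits, against 38.7% of all genes. This share too depended on the signal, at 61.2% of genes at or above the median, where all 14 neuronal genes lie, and 12.3% below it. The part of these cell types in the differences of Gabra2 and Gabra3 was not tested.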

How the data were processed

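Both sorted fractions of day 11, day 12 and day 13 were measured on 6 GeneChip Mouse Gene 1.0 ST arrays. The authors calculated the deposited log2 signals of 28853 probe sets with RMA16 in GeneSpring. Joint normalization, the annotation's version and filtering are not given in the sources used. Of the probe sets 21789 had 1 symbol in the platform annotation, 1621 several and 5443 none. Of those with 1 symbol 21698 matched the RefSeq gene table of GRCm38.p6 by Entrez ID, with 0 symbols changed. Several further subunit genes were not analysed here.

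The 19938 genes were fitted with limma 3.58.1 (R 4.3.3). The model held the fraction and, as a factor, the day (2 residual degrees of freedom), eBayes and Benjamini-Hochberg adjustment over all genes. A slope of the difference per day (1 residual degree of freedom) and a slope of the signal per day were also fitted. Fractions were paired by the day given in the labels, and the correlation across genes between the 2 arrays of a day, each less the mean of its fraction, was 0.112, 0.558 and 0.368 on day 11, day 12 and day 13. Between arrays of unlike days it ran from -0.493 to 0.297, the highest being CTIP2:GFP+ of day 11 with CTIP2:GFP- of day 13, so the data bear the day 11 pair out weakly. With no replicate block 84 genes were higher and 41 lower, against 159 and 113 with it. Genes named are the members, the other subunits, up to 4 genes per further list by size of difference, Bcl11b, and the 2 genes nearest to each member in profile. Lhfpl4, Gphn and the markers Aldh1l1, Crym, Dlx6, Nkx2-1, Pdgfra, Slc17a6, Slc17a7 and Tbr1 were named after their values were seen. The members and lists were chosen with earlier results of these data known. The fit was tested on simulated data. Other settings tried were no day term, leaving out a day, centring on the median, a quantile step, averaged probe sets, 2 cuts on dim signals, the methods' t-test (which they do not tie to the arrays), an eBayes with trend and robust options, and a fit of single probe sets. A fit with neither the day nor the day 13 CTIP2:GFP- array was added after seeing the data.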

Additional observations from a re-analysis of the deposited data

Results flagged for a closer look

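The daily difference changed sign in 10 of the 31 genes for which alternative settings were run, and these changes were not tested, since each fraction had 1 array per day. Among the members, Gabra5 was at -0.13 on day 13, against positive values on the other days, and Gabrb1 was at 0.24 on day 12, against negative values on the others. Of the other subunits, Gabrd was at -0.56 on day 13 after positive values, Gabrr3 at 0.16 on day 11 before negative ones, and on day 12 Gabrg1 was at 0.10, Gabre at 0.10, Gabrp at 0.021, Gabrq at 0.19 and Gabrr1 at 0.16, each with negative values on the other days. Slc12a2 was at -0.089 on day 12 and positive otherwise.

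The 2 probe sets of Gabrb2 that did not enter the comparison also carried signal above that of CTIP2:GFP- cells on each day. Their differences were 1.14 and 0.57. On the probe set with 1.14, the daily differences were 1.23, 0.56 and 1.64 on day 11, day 12 and day 13, against 0.81, 0.36 and 0.48 on the probe set used. Adjusted over all probe sets, the adjusted p from limma was 0.103 and 0.221 for the unused probe sets and 0.184 for the used one.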

How the results depend on the processing

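Of the 7 members 2 rose, and the count was 2 with no replicate block, without the day 11 or day 12 arrays, with the mean of probe sets, both filters, probe sets in place of genes, and the added fit without the day 13 CTIP2:GFP- array. It was 0 after median centring and with the methods' t-test after Benjamini-Hochberg, and 1 after a further quantile normalization, which kept Gabra2. It was 3 with a trended and robust eBayes, which added Gabra5, and 3 at the unadjusted threshold of the methods' t-test, which added Gabrg3. Leaving out each day in turn gave 0 to 2 members higher, with 0 without day 13, and 0 lower in each. The median difference of the members was 0.31 to 0.58 without a day, against 0.55, and 1.47 over the 3 members left by the filter at the median of all probe sets.

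Over all genes, 159 were higher and 113 lower. Without 1 day the counts ran from 0 to 930 higher and 0 to 229 lower, with 0 and 0 without day 13, 930 and 229 without day 12, and 381 and 171 without day 11. They were 84 and 41 with no replicate block, 0 and 0 after median centring, 52 higher (99 lower) after quantile normalization, 387 and 226 with the filter at the 20th percentile, 703 and 337 with the filter at the median, 549 and 510 with a trended and robust eBayes, and 98 and 74 over probe sets. The methods' t-test gave 966 and 790 at its unadjusted threshold and 0 and 0 after Benjamini-Hochberg. The causes were not tested. Among the 31 genes followed one by one, the direction turned in 7, all near 0 and none past the test. Leaving out each day in turn gave -0.37 to 0.039 for Gabrb1, -0.025 to 0.047 for Gabrg1, -0.25 to 0.077 for Gabrd, -0.25 to 0.0043 for Gabre, -0.0080 to 0.093 for Gabrq, -0.38 to 0.011 for Gabrr1 and -0.066 to 0.070 for Gabrr3. The turned sign came without day 13 for Gabrb1, Gabrd, Gabre and Gabrr1, without day 12 for Gabrg1 and Gabrq, and without day 11 for Gabrr3. In the added fit, with no day term and without the day 13 CTIP2:GFP- array, Gabrd was at 0.059 and Gabrr1 at 0.033. Low signal limits Gabra4, Gabrb1 and most of the other subunits.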
